A study of Rattus norvegicus with 8 samples.

Results

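Genes of the interferon response and of viral RNA sensing were followed in the liver of diabetic rats fed with or without an extract of persimmon peel (PP). The list held 36 genes, chosen by name. Of these, 35 had a probe set whose annotation gave that gene as its only symbol, and 34 had a set bright enough to be tested. They are 34 of 9174 genes tested in all. Gbp5 had no such probe set. The only set for Irf5 was dim, with signals between 6.25 and 39.8 over the 8 arrays, and was not tested.

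The animals were male Goto-Kakizaki (GK) rats, a lean inbred model of type 2 diabetes. They were bought at 5 weeks of age and kept for 1 week on the purified AIN-93G diet. For the next 12 weeks 4 rats stayed on that diet (control) and 4 received it with the PP extract added, and the livers were taken at 18 weeks of age. The dose of the extract is not given in the sources used here, and no group of non-diabetic rats entered the comparison. RNA of each whole liver was hybridised to 1 single-colour Affymetrix array, so a signal can change because a cell type becomes rarer or because each cell holds less of the RNA, and these cannot be told apart.

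Interferons are secreted when a cell detects foreign nucleic acid. Helicases in the cytosol recognise viral RNA and signal through the mitochondrial adaptor Mavs, which switches on interferon genes. Secreted interferon then binds receptors on the same and neighbouring cells, where Jak kinases and Stat and Irf transcription factors turn on antiviral effectors. Hepatocytes and Kupffer cells, the resident macrophages of the liver, can both run this programme. Many of its target genes carry an interferon-stimulated response element (ISRE) close to their start site.

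The core of that element, written here as GAAA, any 2 bases and GAAA again, was searched on both strands in RefSeq promoters of assembly GRCr8, each from 250 bases before to 50 bases after the start. Of the 36 genes, 25 had a promoter there. The core was present in 13 of the 25 (52.0%), against 1034 of 27457 promoters of all genes (3.77%). It occurred in 6 of 9 effector promoters, 4 of 4 GTPase promoters, 1 of 7 transcription factor promoters and 0 of 2 promoters of receptors or kinases. Mx1 and Oasl, effectors whose signals varied widely between animals, had a promoter there without the core. The stretches below all hold the core and include Ifih1, the gene with the clearest difference between the diets. The others are effectors and GTPases that, among those with a core, varied most between animals or between probe sets. Each stretch is printed 5′ to 3′ on the strand of the gene, with the core in capitals. A core on the opposite strand reads TTTC, 2 bases and TTTC.
Ifih1: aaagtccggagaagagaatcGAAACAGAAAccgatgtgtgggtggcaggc
Rsad2: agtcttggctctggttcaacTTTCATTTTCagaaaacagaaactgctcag
Ifit3: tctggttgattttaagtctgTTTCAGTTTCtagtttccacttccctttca
Isg20: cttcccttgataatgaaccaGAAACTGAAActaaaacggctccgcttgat
Oas1a: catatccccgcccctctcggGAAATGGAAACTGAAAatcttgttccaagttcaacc
Bst2: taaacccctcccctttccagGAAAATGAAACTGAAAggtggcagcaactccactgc
Gbp2: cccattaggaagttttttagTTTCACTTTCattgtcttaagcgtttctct
Igtp: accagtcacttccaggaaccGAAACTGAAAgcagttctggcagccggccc

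The Ifih1 stretch is chr3:67683998-67684047 on the minus strand, and its core lies at positions -59 to -50 from the start. The others are chr6:48788238-48788287 for Rsad2 (minus strand), chr1:241527262-241527311 for Ifit3 (plus), chr1:142239947-142239996 for Isg20 (plus) and chr12:41330405-41330460 for Oas1a (plus). Bst2 lies at chr16:18255063-18255118 (minus), Gbp2 at chr2:234005676-234005725 (plus) and Igtp at chr10:42874924-42874973 (plus). In Oas1a and Bst2 the capitals hold 2 overlapping cores. A second pattern, TTCNNNGAA, is the core of the interferon-gamma-activated site. It was present in 7 of the 25 promoters (28%), against 2382 of all promoters (8.68%). Oas1a, Bst2, Irgm and Igtp held both patterns, and in Bst2 they overlapped. A match describes the letters in this window only.

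Between the diets, 1 of the 34 genes was lower on PP and 0 were higher. The gene was Ifih1. A call here means a limma test with a Benjamini-Hochberg adjusted p under 0.05 over all 15521 tested probe sets, read on the brightest set of each gene. Over all 9174 genes, 1.93% were called lower and 0.469% higher. At an unadjusted p under 0.05, 3 of the 34 passed (Ifih1, Stat2 and Ifnar1). That is 8.82%, against 16.3% of all genes. The log2 fold changes, PP minus control, ran from -0.79 to 0.40 with a median of 0.08, against a median of 0.01 over all genes. They were above 0 for 20 genes and below 0 for 14, against 4826 and 4348 over all 9174 genes. Diets did not overlap for 2 genes, Ifih1 with PP lower and Stat2 with PP higher.

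**Figure D1:**
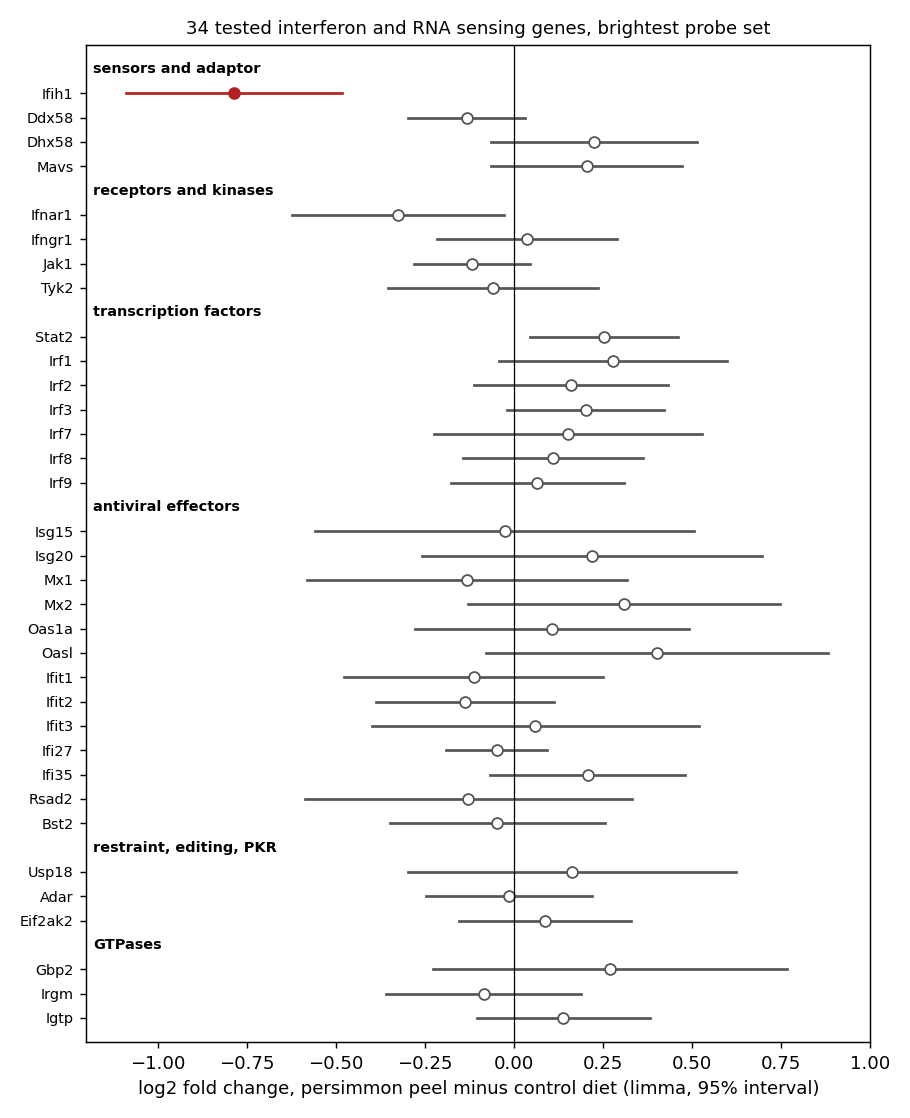
Log2 fold change, PP minus control, of the brightest probe set of each of the 34 tested genes, grouped by role, with 95% intervals from the limma fit (n = 4 arrays per diet). Ifih1 at -0.79 is the only gene called, and the intervals of most others include 0.

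Among the sensors, Ifih1 fell. It encodes MDA5, the helicase that senses long double-stranded RNA. Its signal was 133.8, 122.1, 173.2 and 142.6 in the control livers and 83.4, 92.2, 69.4 and 85.4 in the PP livers. Every PP liver lay below every control liver. Over all genes, 7.21% were separated this way with PP lower and 3.24% with PP higher. The means were 142.9 ± 21.9 and 82.6 ± 9.56 (SD, n = 4), a log2 fold change of -0.79 (SE 0.14, 95% interval -1.09 to -0.48), with a limma adjusted p of 0.00658. The control signal was 1.72 times the PP signal. Ifih1 was among the 24 members with 1 tested set, so no other set of the gene could be compared. The call held in each of the 8 fits that left out 1 array, with adjusted p between 0.00395 and 0.0276.

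In the fit without PP livers 1 and 3 together, 75 of all 15521 sets were called lower, against 703 with all arrays. The Ifih1 call was lost in that fit (log2 fold change -0.68, limma adjusted p 0.0806). It was also lost with the beta-actin ratio as a covariate (-0.50, adjusted p 1), where 0 of all 15521 sets were called. That ratio compares the middle with the 3′ end of the beta-actin transcript on control probe sets, and it falls when RNA is partly degraded or copied incompletely. Its log2 value was -0.76 ± 0.02 in control and -1.06 ± 0.11 in PP livers (SD, n = 4), with no overlap. The exact two-sided permutation p was 0.0286, the smallest that 4 against 4 can give, and 0.0571 after adjustment over 4 ratios. Comparing the 5′ end of beta-actin with its 3′ end gave -1.68 ± 0.12 in control and -1.97 ± 0.22 in PP livers, with the same exact and adjusted p. The lowest control value, -1.8218, was barely above the highest PP value, -1.8233. After quantile normalization the 5′ to 3′ values overlapped (exact p 0.0571, adjusted 0.114). The middle values then still did not (exact p 0.0286, adjusted 0.114). The GAPDH value for the 5′ and 3′ ends stood at -0.29 ± 0.10 in control and -0.43 ± 0.08 in PP livers (exact p 0.0857, adjusted 0.114). Its value for the middle stood at -0.58 ± 0.03 and -0.59 ± 0.05 (exact p 0.857). The part of RNA quality in the Ifih1 difference cannot be told apart from diet by that covariate, which separates the diets itself.

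The other members of the sensing step did not pass. Ddx58, named Rig1 in the annotation, encodes RIG-I, the sensor of short RNA with an unprocessed end. Its signal was 1113.6, 1212.1, 1204.2 and 1191.8 in control and 1025.5, 1087.0, 1075.6 and 1118.2 in PP livers. Only the lowest control liver and the highest PP liver overlapped, and the log2 fold change was -0.13 (SE 0.08, adjusted p 0.362).
Dhx58 encodes LGP2, a helicase without the signalling domain that tunes the other sensors. Its brightest set read 109.1, 152.9, 149.8 and 143.8 in control and 151.9, 153.2, 188.7 and 152.5 in PP livers. The log2 fold change was 0.22 (95% interval -0.06 to 0.51, adjusted p 0.381), and its other sets gave 0.23 and -0.29. Mavs, the adaptor that receives the signal of MDA5 and RIG-I, read 173.4, 196.9, 210.3 and 199.7 in control and 240.6, 190.6, 268.3 and 205.3 in PP livers. The groups overlapped, with a log2 fold change of 0.20 (95% interval -0.06 to 0.47, adjusted p 0.393).

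**Figure D2:**
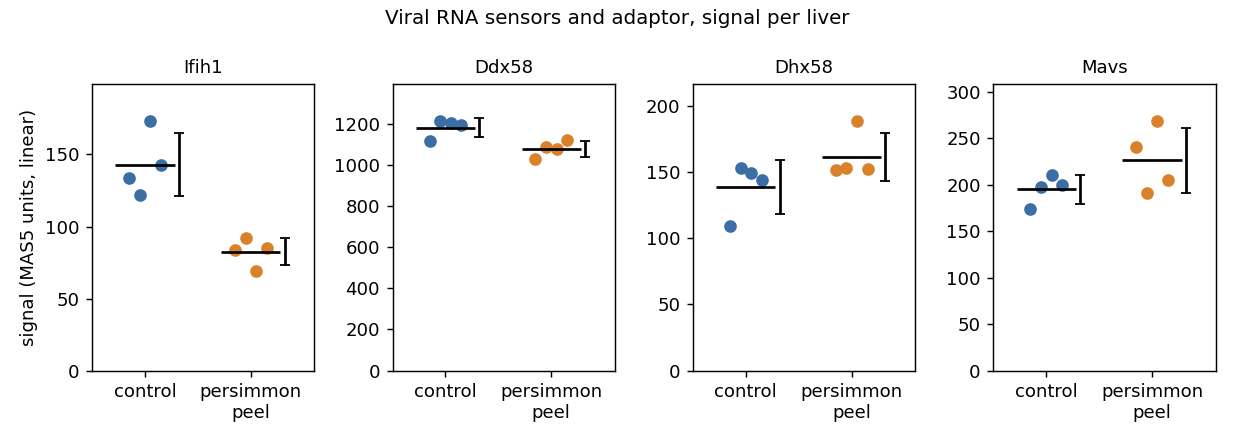
Signal on each array of the sensors Ifih1, Ddx58 and Dhx58 and of the adaptor Mavs, control and PP diet, with the mean and SD of 4 livers. All 4 PP livers lie below all 4 control livers for Ifih1, between 69.4 and 92.2 against 122.1 and 173.2, and the diets overlap for the other genes.

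Of the receptors and kinases, no gene was called on its brightest set. Ifnar1 is a chain of the receptor for type I interferon, Ifngr1 binds interferon-gamma, and Jak1 and Tyk2 are the kinases attached to such receptors. The brightest Ifnar1 set read 102.3, 101.5, 82.7 and 115.5 in control and 74.5, 73.8, 86.4 and 84.7 in PP livers. The log2 fold change was -0.32 (95% interval -0.62 to -0.03, adjusted p 0.207), and control liver 3 lay among the PP livers. The brightest Jak1 set gave -0.12 (95% interval -0.28 to 0.04, adjusted p 0.414). Ifngr1 gave 0.04 (95% interval -0.22 to 0.29) and Tyk2 -0.06 (95% interval -0.35 to 0.24).

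All 7 tested transcription factors had a log2 fold change above 0, between 0.07 and 0.28 with a median of 0.16, and none passed the test. Over all genes, 4826 of 9174 were above 0. Stat2 came closest. With Irf9 it is part of the complex that binds the ISRE after type I interferon. Its brightest set read 650.4, 690.3, 663.3 and 690.7 in control and 717.1, 734.7, 932.1 and 843.2 in PP livers. Every PP liver was above every control liver. Its log2 fold change was 0.25 (95% interval 0.04 to 0.46), with a limma adjusted p of 0.16. After quantile normalization it was 0.29 with an adjusted p of 0.0337, so that 1 of the 34 genes was then higher and 1 lower. Under that scaling 2.11% of all genes were called higher and 1.43% lower. The second Stat2 set gave 0.30 (adjusted p 0.206), with overlap between the diets.

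The other factors were closer to the spread between livers. Irf1, an early interferon-gamma target, read 169.2 to 222.5 in control and 202.1 to 306.3 in PP livers, a log2 fold change of 0.28 (adjusted p 0.329). Irf3, which is present before infection and is activated by Mavs signalling, read 723.8 to 742.0 in control and 693.8 to 994.7 in PP livers, a change of 0.20 (adjusted p 0.304). Irf2 (0.16), which can oppose Irf1, Irf7 (0.15), which amplifies type I interferon, Irf8 (0.11), a factor of myeloid cells, and Irf9 (0.07) were nearer to 0. PP liver 3 was the highest of the 8 arrays for 6 of the 7 factors. It was also the highest for 44.3% of all genes and for 9 of the 10 tested Kupffer cell markers. The factors' median was 0.08 without that liver, 0.19 after quantile normalization, 0.14 after median centring and 0.01 with the beta-actin covariate. The median over all genes in these fits was, in the same order, -0.04, 0.05, -0.01 and -0.11. Without control liver 1, Irf7 and Irf9 were below 0 (-0.02 and -0.03). Irf2 was below 0 (-0.03) without PP livers 1 and 3. With the covariate, Irf2, Irf3 and Irf7 were below 0.

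None of the 13 antiviral effectors passed the limma test between the diets, with 0 called in either direction and 0 at an unadjusted p under 0.05. Their log2 fold changes lay between -0.14 and 0.40. They were above 0 for 6 and below 0 for 7, with a median of -0.03 that became 0.04 after quantile normalization. Livers on the same diet varied widely in these genes. Their median residual SD was 0.35 on the log2 scale, against 0.17 over all genes, and 7 of the 13 lay above the 90th percentile of all tested sets.

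Isg15 encodes a ubiquitin-like protein that is attached to other proteins after interferon. Its signal was 139.5, 334.6, 394.3 and 241.9 in control and 219.4, 212.9, 276.8 and 320.1 in PP livers. Control livers held both the lowest and the highest values. The log2 fold change was -0.03 with a 95% interval from -0.56 to 0.50 (adjusted p 0.967).
Mx1, a GTPase that traps viral nucleocapsids, read 78.6, 162.9, 188.4 and 138.4 in control and 113.7, 125.4, 139.5 and 116.5 in PP livers. Its log2 fold change was -0.13 (95% interval -0.58 to 0.32). Its relative Mx2 read 293.5, 669.5, 636.1 and 413.1 in control and 577.6, 519.1, 587.7 and 689.7 in PP livers, with a change of 0.31 (95% interval -0.13 to 0.75). For both, control liver 1 was the lowest of the 8.
Rsad2, the gene of viperin, which blocks viral replication by making a modified nucleotide, read 63.6, 126.5, 147.3 and 80.9 in control livers. In PP livers it read 91.1, 94.1, 85.0 and 92.1. Its SD on the log2 scale was 0.56 in control and 0.06 in PP livers, while its change was -0.13 (95% interval -0.59 to 0.33).

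Of the effectors that bind RNA, Ifit1 read 146.5, 278.5, 260.6 and 246.9 in control and 194.4, 229.0, 199.8 and 216.0 in PP livers, a log2 fold change of -0.11. Ifit3 read 45.6, 83.2, 94.7 and 72.8 in control and 67.5, 59.7, 84.7 and 90.6 in PP livers, a change of 0.06. The brightest Ifit2 set gave -0.14. Oasl, a relative of the synthetases that activate RNase L, read 87.6, 151.8, 166.0 and 101.8 in control and 147.4, 111.0, 220.3 and 189.8 in PP livers. Its change of 0.40 was the highest of the list (95% interval -0.08 to 0.88, adjusted p 0.347). Oas1a, such a synthetase, gave 0.11, the RNase Isg20 0.22 and Ifi35, a small inducible protein, 0.21.
Ifi27, an interferon-induced protein of mitochondria, varied less. It read 7775.8, 9026.1, 8813.9 and 8833.0 in control and 8156.5, 7722.1, 8900.9 and 8510.9 in PP livers, with a change of -0.05 (95% interval -0.19 to 0.09). Bst2, the gene of tetherin, which holds budding virus at the cell surface, read 1270.6 to 2028.9 in PP and 1405.4 to 1911.8 in control livers, a change of -0.05.

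**Figure D3:**
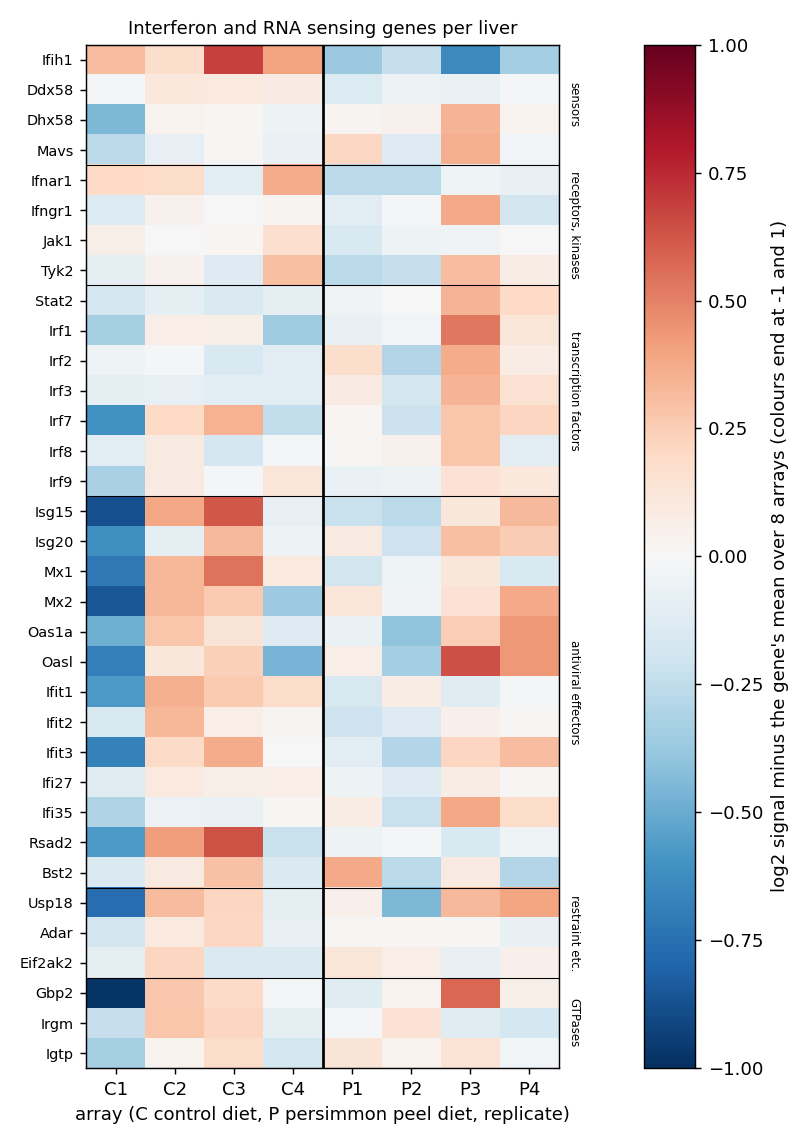
Log2 signal of the brightest set of each of the 34 genes on each of the 8 arrays, centred on the gene's mean over the arrays and ordered by role. Control liver 1 is low across the effectors and GTPases, and the row of Ifih1 is the clearest split between the diets.

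Control liver 1 read low in much of the list. It lay below the other control livers for 13 of 13 effectors, by a median of 0.68 on the log2 scale, and for 25 of all 34 genes (73.5%). Over all genes it lay below them for 28.9%, by a median of 0.04. Control livers 2 to 4 averaged 2.27 times the signal of liver 1 for Isg15, 2.19 times for Gbp2 and 2.06 times for Mx1. The ratio was 1.91 for Mx2, 1.88 for Usp18, 1.82 for Ifit3, 1.80 for Rsad2, 1.79 for Ifit1 and 1.63 for Irf7. Ifih1 did not follow: control liver 2, not liver 1, was its lowest control, and the ratio was 1.08.

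Liver 1 was the lowest of all 8 arrays for 10 of 13 effectors (76.9%) and 20 of 34 genes (58.8%), against 15.1% of all genes. After median centring the shares were 61.5%, 41.2% and 7.5%, and after quantile normalization 84.6%, 58.8% and 14.1%. It was also the lowest array for 6 of 10 Kupffer cell markers, or 4 after median centring, and its median signal was 33.3 where the arrays ranged from 33.2 to 39.2. Its beta-actin middle to 3′ ratio of -0.76 lay among those of the other controls (-0.78 to -0.75). Its beta-actin 5′ to 3′ ratio of -1.82 was the lowest of the controls (others -1.72 to -1.55), level with the highest PP liver (-1.82). Both of its GAPDH ratios lay among those of the other controls. The parts of Kupffer cell content and of RNA quality in this pattern were not tested.

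**Figure D4:**
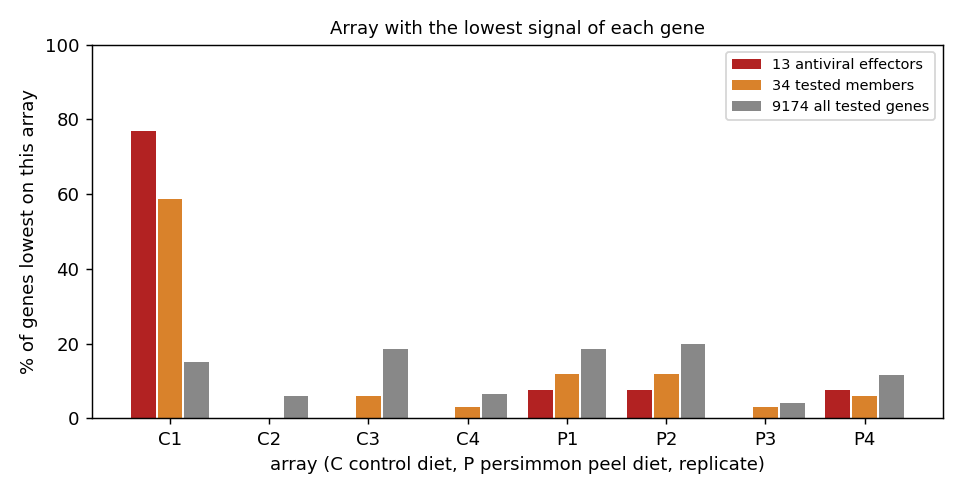
Share of genes for which each of the 8 arrays gave the lowest signal, for the effectors, the whole list and all tested genes. Control liver 1 is lowest for 76.9% of the effectors and 58.8% of the list, against 15.1% of all genes.

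Without control liver 1, several values between the diets moved. The median of the 34 genes went from 0.08 to -0.04, Isg15 from -0.03 to -0.32 (adjusted p 0.402), Mx1 from -0.13 to -0.39 (adjusted p 0.183) and Rsad2 from -0.13 to -0.34. Mx2 went from 0.31 to 0.08 and Gbp2 from 0.27 to -0.01. The median over all genes went from 0.014 to 0.003. No further gene was called. The median SD of the effectors in control livers went from 0.42 with liver 1 to 0.22 without it, beside 0.23 in PP livers. The SD was smaller on PP for 10 of 13 effectors with liver 1 and for 6 of 13 without it. Over all 9174 genes it was smaller on PP for 3414 with liver 1 and for 3378 without it. The median control SD over all genes was 0.14 in both cases. Liver 1 was looked at because it read low in these genes, so a fall of their control SD without it was built in. A fall of their log2 fold changes without it was built in as well.

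Of the genes that restrain or diversify the response, none was called. Usp18, which removes Isg15 from proteins and dampens the type I receptor, read 273.7, 579.3, 539.2 and 434.0 in control and 481.4, 340.5, 581.6 and 611.0 in PP livers, a log2 fold change of 0.16 (95% interval -0.30 to 0.62). Adar, which edits double-stranded RNA and so keeps it from the sensors, gave -0.01 (95% interval -0.25 to 0.22) on its brightest set and 0.06 and 0.21 on the others. Eif2ak2 encodes PKR, the kinase that stops translation on double-stranded RNA. It read 215.6, 268.4, 208.5 and 209.3 in control and 251.7, 242.4, 219.8 and 239.7 in PP livers, a change of 0.09 (95% interval -0.15 to 0.33).

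The GTPases of the interferon-gamma response were likewise not called on their brightest sets. Gbp2, a guanylate-binding protein that coats intracellular pathogens, read 76.9, 182.9, 173.1 and 150.3 in control and 139.2, 155.4, 225.4 and 157.8 in PP livers. Its log2 fold change was 0.27 (95% interval -0.23 to 0.76). Irgm gave -0.09 (95% interval -0.36 to 0.19). The brightest set of Igtp, an immunity-related GTPase that acts on pathogen vacuoles, read 406.4, 525.1, 581.9 and 453.7 in control and 559.6, 525.2, 561.6 and 501.5 in PP livers. Its change was 0.14 (95% interval -0.10 to 0.38).

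Of the tested genes, 10 had further, dimmer probe sets, 15 in all, and these gave a different picture for a few. Of the 15, 3 were lower on PP and 0 higher: a set each of Jak1, Ifnar1 and Igtp. Among all 2981 such further sets, 13.8% were called lower and 0.302% higher, so 3 of 15 is read against a high background. Sets whose diets did not overlap made up 21.7% with PP lower and 1.85% with PP higher among all further sets, and were 2 and 0 of these 15. Over the brightest and further sets together, 4 of 49 were lower and 0 higher, against 4.53% and 0.425% of all tested sets. The probe sets' places along their transcripts were not analysed here.

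The dimmer Jak1 set read 588.7, 551.2, 530.0 and 626.3 in control and 279.6, 399.4, 274.2 and 373.4 in PP livers, with no overlap. The log2 fold change was -0.81 (SE 0.13, limma adjusted p 0.00372), beside -0.12 on the brightest set. The dimmer set minus the brightest was -1.50 ± 0.05 in control and -2.19 ± 0.25 in PP livers (log2, SD, n = 4). The call held in each of the 8 fits without 1 array and in 18 of 19 alternatives. It was lost with the beta-actin covariate, where 0 of all tested sets were called and the change was -0.20.
The Ifnar1 set that was called read 93.4, 76.6, 82.3 and 99.3 in control and 51.1, 62.4, 63.3 and 47.6 in PP livers, again with no overlap. Its log2 fold change was -0.65 (SE 0.15, limma adjusted p 0.0268). The other tested Ifnar1 sets gave -0.32, -0.19, -0.06 and 0.20, so the sets of this gene disagreed in direction. The call was lost without control liver 1, 3 or 4 and without PP liver 1 or 4, with a highest adjusted p of 0.0985.
The Igtp set that was called read 148.4, 141.9, 195.7 and 182.7 in control and 103.3, 153.4, 92.6 and 86.0 in PP livers. PP liver 2 lay among the controls, and the log2 fold change was -0.64 (SE 0.17, limma adjusted p 0.0477). That call held only in the fit without PP liver 2 (adjusted p 0.0038) among the 8 that left out an array. It was lost after quantile normalization (-0.62, adjusted p 0.0766) and held in 5 of 19 alternatives in all. The sign turned to 0.08 with the beta-actin covariate.
Dimmer sets of Ifit2 (-0.41, adjusted p 0.0763, beside -0.14) and Mx2 (0.03, beside 0.31) also had a lower log2 fold change than the brightest set of their gene. The sets of Irf9 (0.07 and 0.17) and Stat2 (0.25 and 0.30) gave similar values. Over all 15 further sets the log2 fold change was above that of the brightest set for 8 and below it for 7, with a median of 0.00. The beta-actin middle to 3′ ratio was lower in every PP liver, and its part in the called sets was not tested beyond the fits given here.

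**Figure D5:**
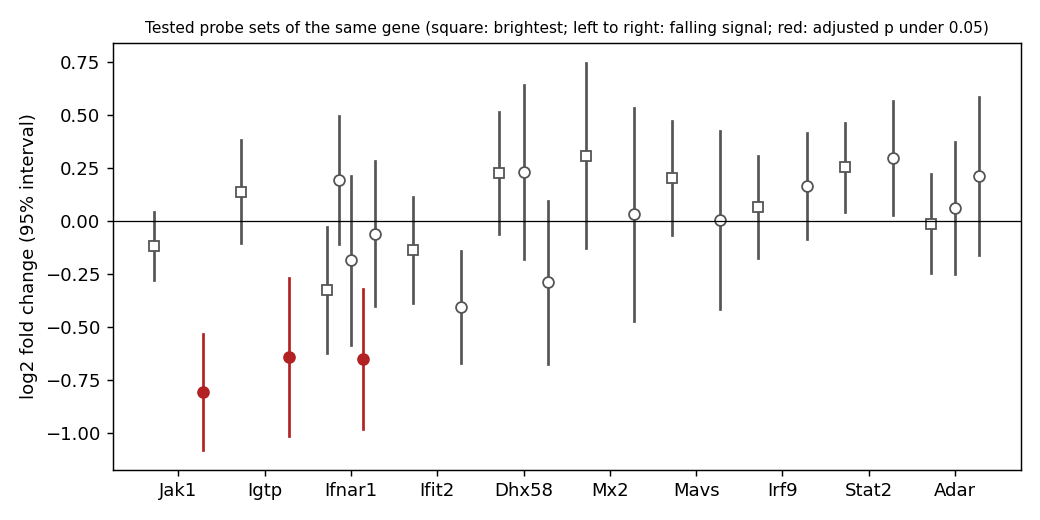
Log2 fold change, PP minus control, of each tested probe set of the 10 genes that have several, with 95% intervals (n = 4 per diet). For Jak1 and Igtp the brightest set lies near 0 (-0.12 and 0.14) while a dimmer set is called lower at -0.81 and -0.64, whereas the sets of Stat2 and Irf9 lie together.

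Other genes of interferon signalling and nucleic acid sensing, a list of 94 names outside the 36, had 62 tested genes. Of these, 2 were lower on PP and 0 higher, with a median log2 fold change of -0.01. Over all genes, 1.93% were lower and 0.469% higher. At an unadjusted p under 0.05, 9 of the 62 passed (14.5%), against 16.3% of all genes. Both called genes act below the sensors. Tank, an adaptor of the kinases that activate Irf3, read 188.9, 163.8, 183.3 and 181.5 in control and 110.9, 135.9, 91.2 and 123.5 in PP livers. It fell by 0.65 on the log2 scale (SE 0.13, limma adjusted p 0.0123).
Tbk1, the kinase that phosphorylates Irf3, read 356.9, 336.2, 367.4 and 417.6 in control and 260.8, 309.4, 274.6 and 285.5 in PP livers. Its log2 fold change was -0.39 (SE 0.10, limma adjusted p 0.0478), and the call was kept without PP liver 2 but lost in each of the other fits without 1 array. Both calls were lost without PP livers 1 and 3 and with the beta-actin covariate, a fit that called 0 of all tested sets. The next by p were Ifi44l (-0.31, adjusted p 0.148) on the lower side and Pias1, Rela and Samhd1 on the higher. Pias1, an inhibitor of activated Stat proteins, read 119.3 to 131.8 in control and 152.3 to 160.2 in PP livers, a change of 0.31 (adjusted p 0.114). Rela gave 0.30 (adjusted p 0.164) and Samhd1, which depletes nucleotides, 0.43 (adjusted p 0.219).
Interferon genes themselves were dim. Ifnb1 read at most 3.99 and Ifng at most 9.79 on any array, below the lowest mean signal tested of 34.4. The cytosolic DNA adaptor Sting1 was dim as well, at 21.0 to 30.7 in control and 12.3 to 19.8 in PP livers, and was not tested. Tlr7, also dim and not tested, went the other way, at 9.05 to 24.0 in control and 24.6 to 27.9 in PP livers. The other dim pathway genes overlapped between the diets. The share of all dim sets that separate by diet was not counted, so no diet difference is read from Sting1 or Tlr7. Of 25 further sets of these pathway genes, 6 were called lower and 0 higher, against 13.8% and 0.302% of all further sets. They belong to 5 genes, the helicases Dhx36 and Ddx3x, Tollip, Parp14 and Sp110.

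Markers of liver cell types were read beside these results. The summed signal of the 7 tested hepatocyte markers, which include Alb and Apob, was 67569 to 72481 in control and 62247 to 66196 in PP livers, with no overlap as deposited. All 7 were below 0, from -0.25 for Tdo2 to -0.05 for Hpx, with a median of -0.09. After quantile normalization 5 were below 0 and 2 above, with a median of -0.02, and the mean log2 level of the 7 overlapped between the diets. It also overlapped after median centring (median -0.11). The 10 tested Kupffer cell and macrophage markers ran from -0.08 for Lyz2 to 0.21 for C1qa. They had a median of 0.12 and summed to 6673 to 8196 in control and 7389 to 10840 in PP livers. PP liver 3 was the highest array for 9 of the 10. Centred on each gene's mean, their mean log2 level was 0.48 in PP liver 3. It was -0.12 to -0.05 in the other PP livers and -0.21 to 0.10 in control livers. The diets overlapped in this level also after quantile normalization (median fold change 0.15) and median centring (0.10). The endothelial markers ran from -0.24 (Lyve1) to 0.27 (Pecam1), and the stellate cell and fibroblast markers from -0.30 (Lrat) to 0.08 (Acta2). A dimmer Lyve1 set gave 0.04. The NK cell genes Gzma (0.20) and Prf1 (0.35), Lck of T cells (0.27), Jchain of plasma cells (-0.06) and Epcam of cholangiocytes (0.00) were the only tested markers of their types. None of 5 neutrophil and 4 dendritic cell markers was bright enough, and the T cell marker Cd3d read at most 11.3. No marker was called on its brightest set. Of 5 further marker sets, 1 was called lower on PP, a dimmer set of the hepatocyte gene Cps1 (log2 fold change -0.55, limma adjusted p 0.00224, beside -0.07 on its brightest set).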

How the data were processed

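Total RNA of 8 livers was extracted with ISOGEN and RNeasy columns and labelled with biotin, per the labels. The authors deposited linear intensity values made with MAS5, per the submitters' processing notes; no version, scaling target or detection call was at hand. The 36 members and the other lists were chosen with earlier results of these data known.

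Values were taken as log2 without a pseudocount. The 57 control sets and the dimmest 50% of the other 31042 probe sets were left out, leaving 15521 with a mean signal of at least 34.4. Diets were compared with limma 3.58.1 in R 4.3.3 (lmFit, eBayes with an intensity trend, two-sided, Benjamini-Hochberg adjustment). The fit was tested on simulated data. The brightest tested set stood for its gene. Names came from the platform annotation: 20826 sets had 1 symbol, 436 several and 9780 none, and 20758 matched RefSeq. All tested members are named, and of the other pathway genes the 3 with the smallest p in each direction. Dimmer sets, the 5 pathway genes with called further sets, and the patterns by array were chosen after their values were seen. Each array was taken as 1 animal. Alternatives were another scaling, filter, variance model or way to combine sets, array weights, a replicate block, a beta-actin covariate, and arrays left out.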

Additional observations from a re-analysis of the deposited data

Results flagged for a closer look

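Among 98 groups of 4 livers, 1 for each diet and tested member set, 5 held a sample far from the other 3, where chance alone gives about 5% of groups, or 4.9. Ifi27 read 7776 in control liver 1, against 8814 to 9026 in the other controls. The brightest Adar set read 244.8 in PP liver 4, against 259.4 to 261.0 in the other PP livers. A dimmer Adar set read 151.0 in PP liver 3, against 96.0 to 101.6. Eif2ak2 read 268.4 in control liver 2, against 208.5 to 215.6. The brightest Dhx58 set read 188.7 in PP liver 3, against 151.9 to 153.2.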

How the results depend on the processing

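Of the 49 tested member sets, 4 were called, and 1 of the other 45 (Stat2, after quantile normalization) was called under any of the 19 alternatives run. The count of member genes lower on PP was 1 in every fit without 1 array. It was 0 among the upper 30% of sets by signal, where Ifih1 was not tested, 0 without PP livers 1 and 3 and 0 with the beta-actin covariate. It was 2 (Ifih1 and Jak1) when a gene's sets were averaged. The count higher was 1 after quantile normalization. The median of the members ranged from -0.04 to 0.14 over the fits without 1 array. The count of pathway genes lower was 1 after quantile normalization, with no filter, with no intensity trend and with the replicate block. It was 0 without PP livers 1 and 3 and 0 with the covariate, and 1 to 2 without 1 array. The count of pathway genes higher was 0 to 1 without 1 array. The pathway median was -0.11 with the covariate, where the median of all genes was also -0.11, and ranged from -0.05 to 0.02 without 1 array. The dimmer Igtp set reversed to 0.0791 with the covariate. With the covariate 0 of all 15521 sets were called in either direction. The cause of these changes was not tested. Replicate numbers did not pair the livers (correlations of deviations for equal numbers from -0.08 to 0.05). With them as a replicate block, the calls of Ifih1 (adjusted p 0.0116) and the dimmer Jak1 set held, and those of Ifnar1 (0.0517) and Igtp (0.0554) were lost. The number of arrays, 4 per diet, limits the precision, and sets near the lowest tested signal of 34.4 are the least certain.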
